A study of Mus musculus with 8 samples.

Results

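The genes described here are the small noncoding RNA genes in the total RNA of mouse immature myeloid cells (IMCs). They are the rows of the count table whose symbol begins with Snora or Snord and a digit, Scarna, Mir and a digit, or Rnu, or is Rmrp, Rpph1, Rn7sk or Terc, and that reached 10 counts in at least 2 of the 8 libraries. Of 24062 rows, 1234 fitted these symbols and 189 reached the minimum. Rmrp was of interest beforehand because it stood out in 1 library. The members were thus chosen by their counts, and the levels that set the choice are given as a description.

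IMCs were grown for 3 days from the bone marrow of 2-month-old C57BL/6 mice with 40 ng per mL of M-CSF. There were 4 groups of 2 libraries. PARP1 WT cells carried PARP1 flox/flox alone and PARP1CKO cells carried PARP1 flox/flox with lysozyme-Cre, which is expressed in the myeloid lineage. PARP2 WT and PARP2CKO cells carried PARP2 flox/flox without and with the same Cre. All 4 groups thus carry floxed alleles, no group carries Cre without a floxed gene, and the knockout reaches only cells in which Cre was active. The labels do not say whether the replicates came from separate mice, so p-values measure the spread between these libraries, which may be technical.

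The libraries held between 37852450 and 61845125 counts, of which the 189 rows took between 0.0461% and 0.0495%. Parp1 was at 202 and 211 CPM (counts scaled to library size) in PARP1 WT and 63.2 and 59.1 CPM in PARP1CKO, and Parp2 fell from 48.2 and 48.3 CPM in PARP2 WT to 25.7 and 25.6 CPM with PARP2 deleted. Itgam (881 to 1040 CPM) and Csf1r (1130 to 1270 CPM), which mark myeloid cells and the monocyte and macrophage line, were high in every library. Cd68 was also high (1550 to 1960 CPM), whereas Fcgr1, Ly6c2 and Ccr2 lay between 48.7 and 74 CPM. The 5 neutrophil markers summed to between 2410 and 3150 CPM, so neutrophil genes were high as well. The 4 granulocyte progenitor markers summed to between 256 and 392 CPM. In bulk RNA, fewer cells of a type and less RNA per cell cannot be told apart.

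C/D box small nucleolar RNAs (snoRNAs) guide the methylation of ribosomal RNA, H/ACA box snoRNAs guide the conversion of uridine to pseudouridine, and small Cajal body RNAs (scaRNAs) do the same for spliceosomal RNA. Most of them are cut out of the introns of host genes, many of which encode ribosomal proteins or serve only as hosts. MicroRNAs are cut from hairpins in longer transcripts and silence messenger RNAs through their seed. Rmrp and Rpph1 are the RNA parts of RNase MRP, which cuts precursor ribosomal RNA, and RNase P, which trims transfer RNA, and both are transcribed by RNA polymerase III from promoters that lie upstream of the gene.

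4 sets of sequences show what the rows contain, and the first is the pair of long RNAs with the widest spread between libraries. They are given as DNA letters from the GENCODE M21 transcripts on GRCm38 (mm10). The Rmrp ribozyme transcript is at chr4:43492788-43493058 on the minus strand. Snord17 is at chr2:144265979-144266216 on the minus strand, in an intron of Snx5, and its capitals mark the first TGATGA (C box) and the last CTGA (D box), found by a letter search on the strand of the RNA.

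Rmrp: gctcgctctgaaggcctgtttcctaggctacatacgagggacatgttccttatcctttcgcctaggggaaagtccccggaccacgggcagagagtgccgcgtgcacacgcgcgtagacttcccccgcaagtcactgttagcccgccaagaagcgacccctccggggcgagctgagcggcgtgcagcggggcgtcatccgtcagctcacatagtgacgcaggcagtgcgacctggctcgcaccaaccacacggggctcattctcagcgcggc
Snord17: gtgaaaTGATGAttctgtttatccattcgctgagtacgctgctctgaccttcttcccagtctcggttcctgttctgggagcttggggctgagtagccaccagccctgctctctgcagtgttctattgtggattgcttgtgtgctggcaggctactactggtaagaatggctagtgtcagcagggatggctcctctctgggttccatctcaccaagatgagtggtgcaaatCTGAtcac

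The second set is the DNA that Rpph1 and Rmrp share with a neighboring protein-coding gene. Rpph1 begins 145 bases from the RefSeq start of Parp2 and runs the other way, so that its first 106 bases lie inside the 250 bases upstream of Parp2, one of the genes deleted in this study. Rmrp begins 306 bases from the start of Ccdc107 and also runs the other way. Both windows, from RefSeq on GRCm38.p6 and on the plus strand, hold the octamer ATTTGCAT on 1 of the strands (in capitals), a motif known from the upstream element of such RNA polymerase III promoters. Of 32536 distinct windows of 250 bases before a RefSeq start, 526 (1.62%) held it on either strand. The match is a description of these letters and no evidence of a site.

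Parp2, chr14:50807666-50807915: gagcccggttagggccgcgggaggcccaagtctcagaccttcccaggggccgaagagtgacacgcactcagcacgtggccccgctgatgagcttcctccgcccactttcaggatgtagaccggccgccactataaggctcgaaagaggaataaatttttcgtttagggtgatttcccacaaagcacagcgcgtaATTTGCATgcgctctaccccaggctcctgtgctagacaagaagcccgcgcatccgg
Ccdc107, chr4:43493115-43493364: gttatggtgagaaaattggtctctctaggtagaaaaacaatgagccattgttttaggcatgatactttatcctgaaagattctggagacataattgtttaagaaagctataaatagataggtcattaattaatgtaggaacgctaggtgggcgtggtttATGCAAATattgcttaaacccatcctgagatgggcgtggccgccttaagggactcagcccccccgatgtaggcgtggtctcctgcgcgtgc

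The third set is the Mir6904 locus, whose row had the smallest p-value in the PARP1CKO comparison. From RefSeq on GRCm38.p6, its hairpin is at chr1:180587201-180587267 on the plus strand, with 60 bases in intron 8 of the first Parp1 transcript of GENCODE and 7 bases (in capitals) in exon 9. In the mature sequences the capitals mark the seed, bases 2 to 8. The 5p seed is shared with miR-6914-5p, another microRNA with a row among the 189.

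Mir6904 hairpin: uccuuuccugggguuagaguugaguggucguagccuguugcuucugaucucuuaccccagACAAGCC
miR-6904-5p: uCCUGGGGuuagaguugagugg
miR-6904-3p: uCUGAUCUcuuaccccag
miR-6914-5p: uCCUGGGGuggugguggccacaga

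The fourth set shows how the rows were counted. Mir7676-1 (chr15:78284788-78284849, minus strand, exon of Csf2rb2) and Mir7676-2 (chr15:78348599-78348660, plus strand, exon of Csf2rb) have the same hairpin. miR-147-5p is shown because its locus differed between the floxed lines.

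Mir7676-1 and Mir7676-2 hairpin: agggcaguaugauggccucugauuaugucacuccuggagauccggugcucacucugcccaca
miR-7676-5p: aGGGCAGUaugauggccucugau
miR-7676-3p: uCCGGUGCucacucugcccaca
miR-147-5p: uGGAAACAuuucugcacaaacuag

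In all, RefSeq gave 174 distinct mature names for 111 of the 120 microRNA loci, with 171 distinct seeds. Only 3 seeds were shared by microRNAs of different names. These were the seed of miR-6904-5p and miR-6914-5p, that of miR-27a-3p and miR-27b-3p, and that of miR-24-3p and miR-6369.

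The 189 rows were 39 C/D box snoRNAs, 23 H/ACA box snoRNAs, 2 scaRNAs (Scarna6 and Scarna13), 120 microRNA loci, 2 microRNA host transcripts (Mir22hg and Mir17hg), Rnu73b, Rmrp and Rpph1. Rn7sk had no row in the table. Terc, the telomerase RNA, had 0 to 2 counts and was not a member. At the threshold, 8 members had a second-highest count of 10 and 8 rows left out had one of 9. In 129 members all 8 libraries reached 10 counts, and 691 rows with a fitting symbol had no count at all.

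Most rows lay inside another gene. By GENCODE M21, 96 rows lay in an intron, 47 had more than 50% of their bases in an exon, 33 had a smaller part in an exon, and 13 lay outside other genes. Exons of any overlapping gene, on either strand, were counted for this. In 31 of 39 C/D box and 19 of 23 H/ACA box snoRNAs the position was intronic, whereas 70 of 120 microRNA loci, 39 mainly and 31 in part, overlapped an exon. A host on the same strand was found for 174 of the 176 rows inside a gene. Rpl13a, which encodes a ribosomal protein, held 5 rows and Snhg12, a noncoding snoRNA host, held 4.

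Mir7676-1 and Mir7676-2 had the same count in all 8 libraries: 125 and 125 in PARP1 WT, 120 and 112 in PARP1CKO, 149 and 131 for PARP2 WT, then 212 and 129 for PARP2CKO. Reads that map to both copies were therefore entered at both, and the 2 rows are 1 measurement. Mir3069 lies wholly within Scarna13 and had 6 to 19 counts beside the 10 to 29 of Scarna13, so overlapping rows were not emptied. Mir8094, in an exon of Ddx39b, an RNA helicase, had between 21.9% and 24.8% of that gene's counts, and Mir6418, partly in an exon of Gnb2, a G protein subunit, between 13.6% and 16.2%. Some rows exceeded their host. Mir684-1, in an intron of Dusp19, had 207% to 303% of the Dusp19 counts, and Mir6369, partly in an exon of Kif27, 133% to 2000% of the Kif27 counts, which were 1 to 6 in a library. Of the 189 members, 86 were no longer than a 75-base read. Which RNAs gave the reads of a microRNA locus was not tested.

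Levels per length differed with position. Levels are in CPM per kilobase of the annotated row (RPKM), computed from TMM-scaled CPM. RPKM was not corrected for read length. Of the 189 rows, 86 were no longer than a 75-base read. Reads that overlap a row only in part may therefore raise the RPKM of short rows. Short rows cannot be compared directly with long ones such as Mir22hg (5152 bases) and Mir17hg (2339 bases). The median row in an exon was at 11.2 RPKM, in part of an exon at 20 RPKM, and in an intron at 4.64 RPKM. By class, the median was 6.53 RPKM for C/D box snoRNAs, 3.98 RPKM for H/ACA box snoRNAs and 8.12 RPKM for microRNA loci.

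By mean CPM, which takes no account of length, the first 3 C/D box rows were Snord22, in the noncoding host Snhg1 (29.7 RPKM), Snord2, in the translation factor gene Eif4a2 (25.2 RPKM), and Snord96a, in Gnb2l1, which encodes the ribosomal scaffold protein RACK1 (19.9 RPKM). Per length Snord34 (20.6 RPKM) and Snord47 (20 RPKM) were slightly above Snord96a. On the same ranking the first 3 H/ACA box rows were Snora65 in the ribosomal protein gene Rpl12 (63.1 RPKM), Snora81 in Eif4a2 (15.2 RPKM) and Snora31 in Tpt1 (20.7 RPKM). Per length Snora68 (23.1 RPKM), Snora61 (19 RPKM) and, narrowly, Snora70 (15.3 RPKM) were above Snora81. The first 3 microRNA loci by mean CPM were Mir6418, Mir8094 and Mir5107, at 366, 335 and 294 RPKM, all partly or mainly in exons (of Gnb2, Ddx39b and Cd74), while per length Mir5114 was above them at 393 RPKM. Mir22hg and Mir17hg, the precursor transcripts of miR-22 and of the miR-17 cluster, were at 4.85 and 5 RPKM. Scarna13 and Scarna6 were at 1.39 and 0.625 RPKM and Rnu73b at 3.63 RPKM.

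Of the 189 rows, 2 had at least 20 counts in 1 library and over 4 times the CPM of the next highest library. Both were in PARP2 WT replicate 1, and both were the long RNAs shown above. Rmrp had 499 counts (8.63 CPM) there, against 38 counts (0.730 CPM) in PARP2 WT replicate 2, 28 and 6 counts (0.469 and 0.124 CPM) in PARP2CKO, 2 and 2 in PARP1 WT, and 2 and 4 in PARP1CKO. PARP2 WT replicate 1 was thus 11.8 times the next, all 4 libraries of the PARP1 floxed line were near 0, and these levels are a description, because Rmrp was chosen for this pattern.

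Snord17, a C/D box snoRNA of unusual length, had 156 counts (2.70 CPM) in PARP2 WT replicate 1 and 35 counts (0.673 CPM) in PARP2 WT replicate 2. It had 39 and 25 counts in PARP2CKO, 16 and 27 in PARP1 WT and 17 and 27 in PARP1CKO. Outside PARP2 WT replicate 1 its 7 libraries spanned 0.337 to 0.673 CPM. Its host Snx5, a sorting nexin, did not share the peak, with 444 CPM in PARP2 WT replicate 1 and 458 CPM in replicate 2.

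Rpph1 had 169 and 429 counts (4.37 and 8.65 CPM) in PARP1 WT, 228 and 166 counts (4.52 and 3.67 CPM) in PARP1CKO. In the PARP2 line it had 464 and 55 counts (8.02 and 1.06 CPM) without Cre, against 76 and 22 counts (1.27 and 0.456 CPM) with Cre. PARP2 WT replicate 1 was at the level of the PARP1 floxed line, and the other 3 libraries of the PARP2 floxed line were below all 4 libraries of the PARP1 line. The PARP2 WT and PARP2CKO libraries overlapped. The log2 fold change in PARP2CKO was -2.36 (standard error 0.836, edgeR quasi-likelihood adjusted p = 0.888), and without PARP2 WT replicate 1 it was -0.24. Parp2 itself, which starts 145 bases away on the other strand, had nearly equal CPM in both PARP2 WT libraries.

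**Figure D1:**
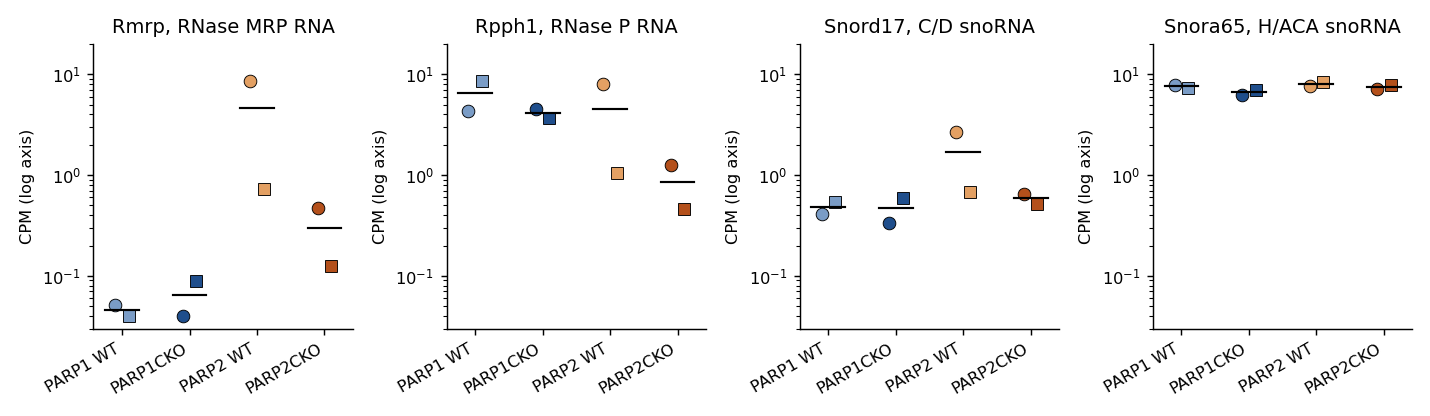
Level of Rmrp, Rpph1, Snord17 and, for contrast, Snora65 in each library, in TMM-scaled CPM on a common log axis. Circles are replicate 1, squares replicate 2 and bars the mean of the 2 libraries. PARP2 WT replicate 1 is at 8.63 CPM for Rmrp and 2.70 CPM for Snord17, above every other library, whereas Snora65 lies between 6.30 and 8.44 CPM in all 8.

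Across all 24062 rows, 5 genes stood out in PARP2 WT replicate 1 by the same rule, and no other library had more than 1. Besides Rmrp and Snord17 they were Vaultrc5, a vault RNA also made by RNA polymerase III (29 counts, against 0 to 4 elsewhere), and Car3 and Cfd (39 and 26 counts), which are known as genes of fat cells. The last 3 are outside the 189 and were singled out after their values were seen. The summed level of 7 basophil and mast cell markers was 16.7 CPM in this library, 13.6 CPM in PARP2 WT replicate 2, 8.94 and 11.3 CPM in PARP2CKO, and 23.4 to 32.1 CPM in the PARP1 line. Of the 7 markers, 2 were higher in PARP2 WT replicate 1 than in replicate 2, Hdc (5.53 against 0.98 CPM) and Gata2 (2.08 against 2.02 CPM), and Mcpt8, Cpa3, Prss34, Ms4a2 and Fcer1a were lower. All 5 neutrophil markers and all 4 B cell markers were higher in PARP2 WT replicate 1 than in replicate 2. Their sums were 3150 against 2920 CPM and 10.4 against 8.75 CPM. Of 5 T and NK cell markers 0 were higher there (2.3 against 3.06 CPM in sum). Markers of the other cell types were mixed. The part of any of these cell types in the 3 small RNA patterns was not tested.

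The coefficient of variation over the 8 libraries was 20.6% in the median row and ranged from 4.24% to 235%. It was 1.19 times the value that counting error alone gives for the median row, but 20.1 times for Rmrp, 11 times for Rpph1, 8.58 times for Mir6904, 6.29 times for Snord17, 5.45 times for Mir5114 and 3.86 times for Mir147. The spread is over all 4 groups, so it holds differences between groups and between samples as well as counting error. These ratios are a description, and nothing is read from that of Rmrp, which was chosen for its spread. The median row had a highest library 1.08 times the next.

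**Figure D2:**
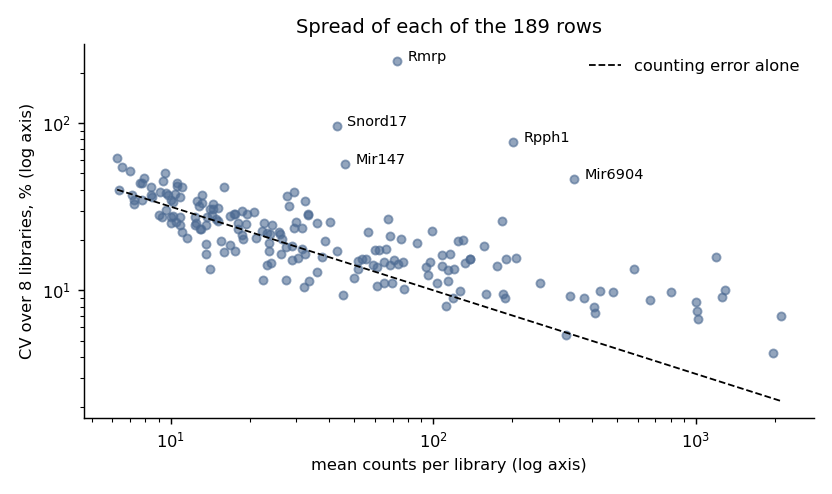
Coefficient of variation of TMM-scaled CPM over the 8 libraries against the mean count per library, 1 point for each of the 189 rows, both axes logarithmic. The dashed line is the variation that Poisson counting error alone would give. Rmrp (235%), Snord17 (96.2%), Rpph1 (77.3%), Mir147 (56.8%) and Mir6904 (46.4%) lie far above it, and Rmrp was chosen for its spread.

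The PARP1CKO comparison asked which RNAs differ when Parp1 is deleted in myeloid cells. Of the 189 rows, 185 passed edgeR's filter on low counts, and 0 of these passed an adjusted p of 0.05 in the quasi-likelihood test, against 14 of 13197 genes (0.106%). At an unadjusted p under 0.05 there were 10 rows, 3 higher and 7 lower, a share of 5.41% beside 11.3% of all genes tested. The libraries of the groups did not overlap in 73 rows, beside 41.2% of all genes. DESeq2 called 1 row, beside 0.652% of all genes, and edgeR's likelihood-ratio test 2, beside 1.11%. With no filter on low counts 1 row was called, beside 0.576%.

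Mir6904 came nearest to the threshold. Its row had 233 and 416 counts (6.02 and 8.38 CPM) in PARP1 WT, 132 and 93 counts (2.62 and 2.06 CPM) in PARP1CKO. In the PARP2 line it had 503 and 297 counts (8.70 and 5.71 CPM) without Cre, against 573 and 489 counts (9.61 and 10.1 CPM) with Cre. The PARP1CKO libraries were the lowest of the 8. The log2 fold change was -1.63 in PARP1CKO (standard error 0.240, quasi-likelihood adjusted p = 0.0597), and the adjusted p was 1.60e-09 with DESeq2 and 1.99e-08 with the likelihood-ratio test. The quasi-likelihood adjusted p was 0.0215 without PARP2 WT replicate 1 and 0.0214 without PARP2 WT replicate 2, and it reached 0.196 without PARP1CKO replicate 2, the largest over the alternatives run. Its host Parp1, the deleted gene, fell by 1.75 (standard error 0.178, adjusted p = 0.0134 in the quasi-likelihood test).

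The Mir6904 row held between 2.98% and 4.14% of the Parp1 counts in every library, whatever the genotype. In PARP2CKO the log2 fold change was 0.45 for Mir6904 (standard error 0.204, adjusted p = 0.954) and 0.37 for Parp1. Parp1 was at 251 and 155 CPM in PARP2 WT and at 263 and 264 CPM in PARP2CKO. The size of both rises thus rested in large part on PARP2 WT replicate 2, which also enters the differences that follow. The PARP2CKO effect exceeded the PARP1CKO effect by 2.08 on the log2 scale for Mir6904 (standard error 0.316, adjusted p = 0.119) and 2.13 for Parp1 (adjusted p = 0.0552). Whether these reads came from mature microRNA was not tested.

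**Figure D3:**
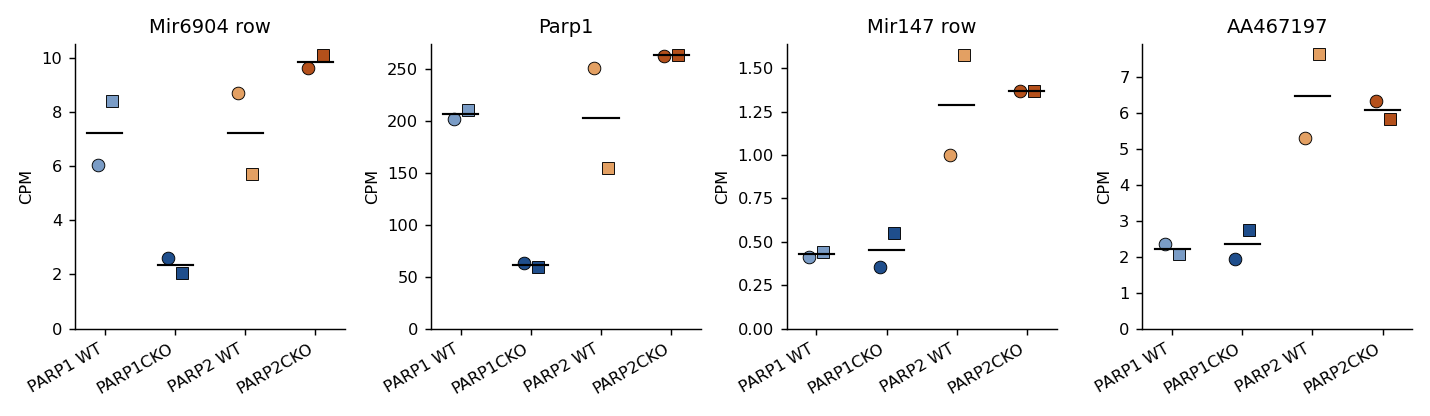
Level of the Mir6904 row and its host Parp1, and of the Mir147 row and its host AA467197, in each library in TMM-scaled CPM on linear axes that start at 0. Circles are replicate 1, squares replicate 2 and bars the mean of the 2 libraries. The Mir6904 row is lowest in PARP1CKO (2.62 and 2.06 CPM) as Parp1 is (63.2 and 59.1 CPM), and the Mir147 row is higher in the PARP2 line (1 to 1.58 CPM) than in the PARP1 line (0.357 to 0.553 CPM), as AA467197 is.

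Snora81 was the snoRNA with the smallest p. It lies in an intron of Eif4a2 (chr16:23110770-23110933, plus strand), and had 120 and 137 counts (3.10 and 2.76 CPM) in PARP1 WT, 90 and 80 counts (1.78 and 1.77 CPM) in PARP1CKO, and 2.35 to 2.91 CPM in the PARP2 line. Both PARP1CKO libraries were below the other 6. The log2 fold change was -0.72 (standard error 0.159, quasi-likelihood adjusted p = 0.187, likelihood-ratio adjusted p = 0.0200). Eif4a2 itself was at -0.18 (adjusted p = 0.281).

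Snord2, a C/D box snoRNA from another intron of Eif4a2, was at 1.71 and 1.75 CPM in PARP1 WT and 1.15 and 1.46 CPM in PARP1CKO, which is -0.41 on the log2 scale (standard error 0.184, quasi-likelihood adjusted p = 0.448). The size of this fall rested in part on PARP1CKO replicate 1, the lowest of the 8 libraries. In the PARP2 line Snord2 was at 1.63 and 1.79 CPM without Cre, against 2.23 and 2.01 CPM with Cre. The difference of effects was 0.73 for Snord2 (adjusted p = 0.589) and 0.61 for Snora81 (adjusted p = 0.609), and neither passed.

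The other rows named by p did not pass the test. Snord100, in the ribosomal protein gene Rps12, was at 1.42 and 1.67 CPM in PARP1 WT and 1.07 and 0.752 CPM in PARP1CKO (log2 fold change -0.76, standard error 0.286, quasi-likelihood adjusted p = 0.382). Mir6935, in an intron of the actin gene Actg1, was at 2.33 and 2.40 against 1.70 and 1.57 CPM (log2 fold change -0.53, adjusted p = 0.313). Mir7059, in an intron of Cln3, had 5 and 4 counts against 16 and 13 (log2 fold change 1.54, standard error 0.478, adjusted p = 0.300). Their hosts were between -0.03 and 0.03 on the log2 scale. Snord22 and Snora65 had log2 fold changes of -0.42 and -0.20, with adjusted p of 0.419 and 0.503 in the quasi-likelihood test. Snord22 was at 4.24 and 3.81 CPM in PARP1 WT and 3.53 and 2.46 CPM in PARP1CKO. The size of its fall thus rested in part on PARP1CKO replicate 2.

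By class, 19 of 23 H/ACA box snoRNAs had a negative and 4 a positive log2 fold change in PARP1CKO, with a median of -0.113. Of the C/D box snoRNAs 26 of 39 were negative, with a median of -0.115. Among all genes tested 47.9% were negative and the median was 0.006, and the microRNA loci were at 0.056, with 53 of 116 negative. The summed level of the H/ACA box rows was 27.4 and 25.9 CPM in PARP1 WT and 22.8 and 22.7 CPM in PARP1CKO. That of the C/D box rows was 26.2 and 26.3 CPM in PARP1 WT and 24.5 and 22.7 CPM in PARP1CKO. Both sums were lower in both PARP1CKO libraries, but 2 against 2 libraries cannot give an exact permutation p below 0.333. Rows of one host are not independent of each other.

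The PARP2CKO comparison asked the same of Parp2. Again 0 of the 185 rows passed the quasi-likelihood test, beside 7 of 13197 genes (0.053%), and DESeq2 called 0, beside 0.205% of all genes. The likelihood-ratio test called 1, beside 0.296%, which was Rmrp, and nothing is read from it because the same counts chose that row. With no filter it was again Rmrp alone, beside 0.148%. An unadjusted p under 0.05 was reached by 8 rows, 2 higher and 6 lower, or 4.32% beside 4.83% of all genes. The groups did not overlap in 75 rows, beside 37.2% of all genes.

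Snord17 had a log2 fold change of -1.53 in PARP2CKO (standard error 0.561, quasi-likelihood adjusted p = 0.909), which was -0.19 without PARP2 WT replicate 1. The fitted value for Rmrp, given as a description, was -3.91, and -1.23 without that library. For both, as for Rpph1, the size of the difference rested on PARP2 WT replicate 1.

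Among the 5 rows with the smallest p whose PARP2 groups did not overlap, 3 were microRNA loci mainly in exons. Mir7646 lies within an exon of Armcx5, on chromosome X, and was at 0.709 and 0.788 CPM in PARP2 WT against 0.402 and 0.373 CPM in PARP2CKO, with 0.694 to 0.905 CPM in the PARP1 line, so that both PARP2CKO libraries were the lowest. Its log2 fold change was -0.94 (standard error 0.252, quasi-likelihood adjusted p = 0.796), while Armcx5 was at 0.00. The row held 3.98% and 3.48% of the Armcx5 counts in PARP2CKO and 6.77% to 8.77% in the other 6 libraries.

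Mir8114, mainly in an exon of Glul, which encodes glutamine synthetase, was at 3.44 and 2.92 CPM in PARP2 WT against 5.30 and 4.12 CPM in PARP2CKO. Its log2 fold change was 0.57 and that of Glul 0.21, each with an adjusted p of 0.888 in the quasi-likelihood test. Mir5114, within an exon of the fatty acid desaturase gene Scd2, was at 25.2 and 25.2 CPM in PARP2 WT against 19 and 20 CPM in PARP2CKO. It and Scd2 had the same log2 fold change, -0.37, and the row held 1.92% to 2.08% of the Scd2 counts in all 8 libraries.

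In PARP2CKO the H/ACA box snoRNAs had 15 positive and 8 negative log2 fold changes (median 0.152) and the C/D box snoRNAs 18 and 21 (median -0.064), beside 50.7% negative and a median of -0.001 over all genes. With DESeq2's size factors, or library size alone, the medians of both classes kept these signs in both deletions. The H/ACA box sums overlapped, at 27.0 and 28.2 CPM in PARP2 WT against 25.2 and 28.9 CPM in PARP2CKO, as did the C/D box sums, at 29.9 and 27.6 against 27.1 and 29.3 CPM. For all 189 rows the sum lay between 456 and 493 CPM in the 8 libraries. The median log2 fold change of the rows tested was -0.034 in PARP1CKO and 0.037 in PARP2CKO.

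Rnu73b, a C/D type RNA in an intron of the ribosomal protein gene Rps3a1, had 7 to 19 counts. Its log2 fold change was 0.19 in PARP1CKO and -0.73 in PARP2CKO, with adjusted p of 0.883 and 0.954 in the quasi-likelihood test. Mir22hg was between 22.1 and 29.6 CPM in all libraries, and Mir17hg was at 12.8 to 13.3 CPM in the PARP1 line and 9.05 to 10.9 CPM in the PARP2 line. The 2 scaRNAs had 3 to 29 counts in a library.

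**Figure D4:**
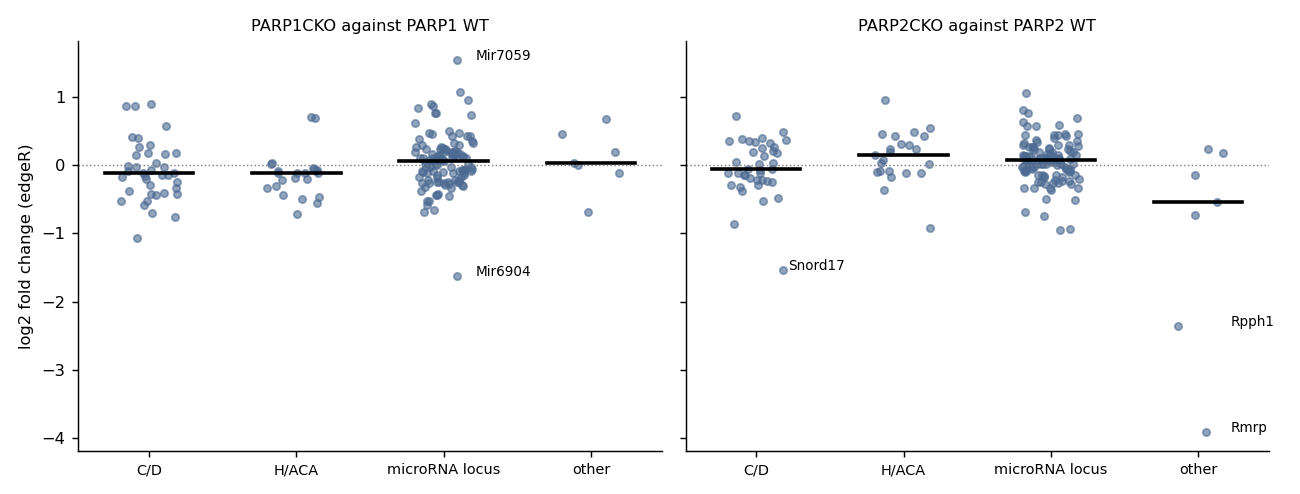
Log2 fold changes from edgeR for the 185 rows tested, by class, in PARP1CKO against PARP1 WT (left) and PARP2CKO against PARP2 WT (right). Points are rows, spread sideways at random, bars are class medians, and "other" holds scaRNAs, host transcripts, Rnu73b, Rmrp and Rpph1. H/ACA box rows lie mostly below 0 on the left (19 of 23) and mostly above 0 on the right (15 of 23), and the row farthest from 0 is Rmrp at -3.91.

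In the test of the difference between the effects, 0 of 185 rows passed, beside 2 of 13197 genes (0.0152%). An unadjusted p under 0.05 was reached by 11 rows (5.95%), beside 7.69% of all genes. DESeq2 and the likelihood-ratio test each called 1 row, Mir6904, beside 0.341% and 0.546% of all genes, and so did the quasi-likelihood test with no filter, beside 0.348%.

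In PARP1CKO the log2 fold change of row and host had the same sign for 25 of 45 rows in an exon, 23 of 32 partly in an exon and 46 of 88 in an intron. Position counts exons of any overlapping gene, whereas the host was taken from the same strand where possible. A row in an exon thus need not lie in an exon of its host. In PARP2CKO the counts were 23, 18 and 46. Across the rows partly in an exon, Spearman's rho between row and host was 0.47 in PARP1CKO (Pearson's r 0.76) and 0.23 in PARP2CKO (r 0.26). The 32 rows include Mir6904 with its host Parp1, the deleted gene, and without that pair rho was 0.42 (r 0.42) and 0.15 (r 0.01). For rows in an exon rho was 0.21 (r 0.11) and 0.12 (r 0.18), and for rows in an intron 0.23 (r 0.29) and 0.08 (r 0.08). All 6 were positive, over rows that share libraries and, for some, a host.

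A comparison of the WT libraries of the floxed lines was added after the data had been seen. It shares its libraries with both deletion comparisons, and the floxed gene and the mouse line cannot be told apart in it. Of 13197 genes 417 passed (3.16%), and so did 1 of 185 rows, Mir147. Library size alone, DESeq2 and a replicate block called 2 rows each, beside 3.11%, 4.18% and 2.39% of all genes. With no filter, and with the likelihood-ratio test, 3 were called, beside 4.97% and 6.90%, and with the 4 WT libraries alone 0, beside 2.98%. The further rows were Rmrp and Snord17, which stood out in PARP2 WT replicate 1. Mir147 lies within an exon of AA467197 (chr2:122640803-122640881, plus strand), a gene induced in inflammation, and had 16 and 22 counts in PARP1 WT, 18 and 25 in PARP1CKO. In the PARP2 line it had 58 and 82 counts without Cre, against 82 and 66 with Cre. All 4 libraries of the PARP2 line were above all 4 of the PARP1 line. The log2 fold change was 1.57 (standard error 0.309, quasi-likelihood adjusted p = 0.0322), beside 1.55 for AA467197 (adjusted p = 0.00761), and the row held 17.6% to 23.4% of the AA467197 counts. The adjusted p of Mir147 was 0.0535 when only the 4 WT libraries were fitted. It was 0.189 and 0.107 without PARP1 WT replicates 1 and 2, 0.160 without PARP2 WT replicate 2, and 0.0582 and 0.0577 without PARP2CKO replicates 1 and 2. It stayed under 0.05 without PARP2 WT replicate 1 and without either PARP1CKO library. The summed level of 4 B cell markers was 26.5 to 38.2 CPM in the PARP1 line and 7.48 to 10.4 CPM in the PARP2 line. That of 6 erythroid markers was also higher in the PARP1 line (4.98 to 10.1 against 2.05 to 2.65 CPM), as was that of the 7 basophil and mast cell markers, while 4 granulocyte progenitor markers were higher in the PARP2 line, as Mir147 was (347 to 392 against 256 to 302 CPM). The part of these markers in this result was not tested.

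The proteins that make, carry and process these RNAs, and the noncoding snoRNA hosts, gave 83 entries that could be tested, and 0 of them passed in either deletion at an adjusted p of 0.05 in the quasi-likelihood test. In PARP1CKO 12 had an unadjusted p under 0.05, 2 higher and 10 lower, beside 11.3% of all genes at that threshold. There DESeq2 called 2 entries, Nop58 and Ssb, beside 0.652% of all genes, and the likelihood-ratio test 5, these and Dkc1, Gas5 and Larp7, beside 1.11%. Both called 0 in PARP2CKO. The 2 higher were Ago3, an Argonaute protein gene (0.27, quasi-likelihood adjusted p = 0.287), and Ints1 of the Integrator complex (0.14, adjusted p = 0.300). Among the lower were Nop58 (-0.22, adjusted p = 0.110) and Nop56 (-0.15, adjusted p = 0.338), core proteins of C/D box particles, and Dkc1 (-0.23, adjusted p = 0.136) and Naf1 (-0.19, adjusted p = 0.421), the pseudouridine synthase and an assembly factor of H/ACA box particles. Further ones were Rpp40 of RNase P and MRP (-0.35, adjusted p = 0.267), Larp7 of the 7SK particle (-0.20, adjusted p = 0.176), the La protein gene Ssb (-0.21, adjusted p = 0.143), and the hosts Gas5 (-0.22, adjusted p = 0.234) and Snhg5 (-0.23, adjusted p = 0.335). The last was Ints8 of Integrator (-0.11, adjusted p = 0.430).

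In PARP2CKO 1 of the 83 reached an unadjusted p under 0.05, beside 4.83% of all genes. It was Pop1, the largest protein of RNase P and MRP (0.18, standard error 0.0634, adjusted p = 0.888 in the quasi-likelihood test). Between the floxed lines Pop1 was the only entry of the 83 that passed, beside 3.16% of all genes. Pop1 was lower in PARP2 WT than in PARP1 WT (log2 fold change -0.74, quasi-likelihood adjusted p = 0.000878). The 16 genes of RNA polymerase III and its factors had a median of -0.03 in PARP1CKO and 0.02 in PARP2CKO, and the 10 microRNA processing genes medians of 0.00 and 0.03.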

How the data were processed

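The deposited values are raw counts per gene. The authors trimmed single-end 75-base reads with fastq-mcf, mapped them to mm10 with TopHat2 2.0.12, marked duplicates with Picard 1.127 and counted with featureCounts, and the strand setting is not given in the sources used here. Each column was matched to 1 sample by its title. CPM and RPKM were computed here with TMM factors between 0.965 and 1.03. The main test was the quasi-likelihood test of edgeR 4.0.16 in R 4.3.3 on all 8 libraries with group means, filterByExpr and Benjamini-Hochberg adjustment over 13197 genes. Alternatives were DESeq2 1.42.0, the likelihood-ratio test, other scalings and filters, the 4 libraries alone, a replicate block and leaving out each library. Members, lists and tests were chosen with earlier results of these data known. Named rows were Rmrp, Rpph1 and Rnu73b, the 3 highest of each class by mean CPM, the 5 smallest p-values without overlap in each deletion, and rows over 4 times the next library at 20 counts or more. Positions are RefSeq GRCm38.p6 and hosts GENCODE M21. Replicates differed by more than sampling noise over all genes (chi-square per gene 8.32 to 12.6), while over the 189 members the value was 1.53 to 5.24 per member, with medians of 0.5 to 0.698.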

Additional observations from a re-analysis of the deposited data

How the results depend on the processing

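With 2 libraries a group and few counts in many rows, counting error limits the precision of the rows. In PARP1CKO the number of rows called was 1 with no filter on low counts and with DESeq2 and 2 with the likelihood-ratio test, and between 0 and 1 when a library was left out. In PARP2CKO it was 1 with no filter and with the likelihood-ratio test, and between 0 and 1 when a library was left out. In each case the 1 was Rmrp, and nothing is read from it because its counts in the PARP2 line chose that row. For the difference it was 1 with no filter, DESeq2 and the likelihood-ratio test, and between 0 and 1 when a library was left out, beside 1 to 16 genes in all. Between the floxed lines it was 2 with library size alone, DESeq2 and the replicate block, 3 with no filter and the likelihood-ratio test, 0 with the 4 libraries alone, and between 0 and 2 when a library was left out, beside 85 to 566 genes in all. In each of these settings a smaller share of the rows than of all genes was called (3.11% of all genes with library size alone, 4.18% with DESeq2, 2.39% with the block, 4.97% with no filter, 6.90% with the likelihood-ratio test and 2.98% with the 4 libraries alone). For the difference the shares of all genes were 0.348%, 0.341% and 0.546% in the order given. Beside Mir147 these calls were Rmrp and, where 3 were called, Snord17. Without PARP2 WT replicate 2 they were Rmrp and Snord17 alone. Nothing is read from the calls of Rmrp, whose counts in the PARP2 line chose it. Mir147 lost its call without either PARP1 WT library, PARP2 WT replicate 2 or either PARP2CKO library.

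The log2 ratio of the summed CPM of the rows in PARP1CKO lay between -0.08 and -0.013 when a library was left out. Rnu73b in PARP1CKO had a log2 fold change between -0.05 (without PARP1 WT replicate 2) and 0.42 (without replicate 1). Under the replicate block 0 rows were called in either deletion, and all genes called were 14 in PARP1CKO and 6 in PARP2CKO. Same-numbered libraries deviated with a correlation of -0.13 in the PARP1 line and 0.15 in the PARP2 line, so the numbers were not taken to pair the samples. With the PARP1CKO numbers crossed, 18 genes and 0 rows were called. Over all genes, the number called in PARP1CKO was 14 in the main test, 101 with no filter, 86 with DESeq2 and 146 with the likelihood-ratio test, and in PARP2CKO 7, 26, 27 and 39. When a library was left out it was 1 to 34 and 4 to 19. No median of the rows moved by more than the spread between replicates under any alternative.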
